A study of Mus musculus with 2 samples.

Results

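The strongest open chromatin sites away from annotated promoters in mouse frontal cortex numbered 343 of 101790 autosomal DNase-seq peaks in replicate 1. DNase-seq sequences the ends made by DNase I, a nuclease that cuts open chromatin most, and each peak carries a signal value set by the authors whose scaling is not stated. A site was taken if its signal was 4 or more in replicate 1, if it overlapped by at least 1 bp a replicate 2 peak with a signal of 5 or more, and if its centre lay over 1 kb from every transcript start of GENCODE M21, on autosomes only. The sites were thus chosen by the signal of both libraries, and signal values are given as a description with no test. Footprints come from the same libraries and are also described without a test. For comparison, 3 sets of shared peaks stand beside them: 4591 strong start-site peaks that met the same signal limits within 1 kb of a start, 2413 next-strongest distal peaks (signal of 2 up to 4 in replicate 1 and at least 2.5 in replicate 2), and the 37596 other shared distal peaks.

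The tissue is frontal cortex of female mice of the F1 hybrid B6CASTF1/J (B6 by CAST), aged 10 days, with no treatment named. The 2 libraries are biological replicates 1 and 2 of this single group, so the study holds no contrast between conditions. Both carry the same donor label and a "3x" that the labels leave unexplained, so separate animals behind the libraries cannot be told from the labels. Cortex is a mixture of neurons, glia and vessels, and a signal from few very open cells and one from many less open cells cannot be told apart.

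In textbook terms, distal open sites are enhancers, insulators and unannotated promoters. Enhancers are bound by sequence-specific activators, insulators mainly by the zinc finger protein CTCF, which holds chromatin loops. Genes for tRNAs are read by RNA polymerase III from a promoter inside the gene, with a factor seated just upstream of it, and most are missing from annotations of coding and long noncoding transcripts. A footprint is a short stretch inside an open site where fewer cuts were seen than in the flanks, as under a bound protein. Sequence present in many copies that the assembly holds in few can also collect reads from all copies at once.

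The 13 sequences below show the main kinds of site described here, read from the RefSeq assembly GRCm38.p6 (mm10), plus strand, 5′ to 3′. The first set holds the strongest multi-copy sites, with capitals for bases in 36-base words that occur more than once in the assembly.
chr3:5860361-5860530, intergenic: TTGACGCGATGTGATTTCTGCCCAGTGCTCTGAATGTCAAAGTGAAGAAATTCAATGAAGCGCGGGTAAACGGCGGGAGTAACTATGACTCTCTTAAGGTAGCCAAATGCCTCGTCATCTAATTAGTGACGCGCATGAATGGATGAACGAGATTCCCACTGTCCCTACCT
chr6:49236421-49236620, intergenic, nearest coding gene Igf2bp3: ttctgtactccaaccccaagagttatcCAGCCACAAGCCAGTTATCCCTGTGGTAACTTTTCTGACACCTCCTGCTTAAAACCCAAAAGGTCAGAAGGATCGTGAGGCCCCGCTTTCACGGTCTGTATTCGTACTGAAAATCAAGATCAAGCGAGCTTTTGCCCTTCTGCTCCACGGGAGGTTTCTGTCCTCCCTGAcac
chr13:112578161-112578320, intron of Il31ra: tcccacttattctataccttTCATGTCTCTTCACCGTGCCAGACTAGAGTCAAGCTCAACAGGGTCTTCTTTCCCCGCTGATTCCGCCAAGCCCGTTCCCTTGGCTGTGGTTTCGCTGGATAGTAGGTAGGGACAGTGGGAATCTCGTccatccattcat
chr12:78350861-78351100, intron of Gphn: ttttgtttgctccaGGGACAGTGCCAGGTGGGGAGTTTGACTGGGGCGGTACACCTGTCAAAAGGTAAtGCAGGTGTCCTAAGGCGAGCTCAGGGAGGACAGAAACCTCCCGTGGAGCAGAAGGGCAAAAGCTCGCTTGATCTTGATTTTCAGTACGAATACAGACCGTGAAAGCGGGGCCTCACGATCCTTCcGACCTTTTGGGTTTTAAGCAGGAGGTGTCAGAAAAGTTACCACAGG
The second set holds sites over tRNA genes, with the RefSeq tRNA gene in capitals.
chr7:35234761-35234980, n-TTagt9 (tRNA-Thr, minus strand): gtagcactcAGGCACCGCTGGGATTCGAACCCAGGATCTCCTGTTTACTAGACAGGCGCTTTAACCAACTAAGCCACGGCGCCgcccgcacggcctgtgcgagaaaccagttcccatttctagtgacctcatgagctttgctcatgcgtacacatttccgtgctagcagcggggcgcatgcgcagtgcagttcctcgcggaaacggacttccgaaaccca
chr16:13437121-13437420, n-TTcgt5 (tRNA-Thr, plus strand): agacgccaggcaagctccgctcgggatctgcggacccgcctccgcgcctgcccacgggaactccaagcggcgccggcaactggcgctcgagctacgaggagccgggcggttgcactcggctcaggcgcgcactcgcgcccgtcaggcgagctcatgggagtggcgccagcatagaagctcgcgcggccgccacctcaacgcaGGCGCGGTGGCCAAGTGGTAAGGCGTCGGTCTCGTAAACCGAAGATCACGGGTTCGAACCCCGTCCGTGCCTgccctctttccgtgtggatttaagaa
chr14:76152581-76152880, n-TEttc6 (tRNA-Glu, plus strand): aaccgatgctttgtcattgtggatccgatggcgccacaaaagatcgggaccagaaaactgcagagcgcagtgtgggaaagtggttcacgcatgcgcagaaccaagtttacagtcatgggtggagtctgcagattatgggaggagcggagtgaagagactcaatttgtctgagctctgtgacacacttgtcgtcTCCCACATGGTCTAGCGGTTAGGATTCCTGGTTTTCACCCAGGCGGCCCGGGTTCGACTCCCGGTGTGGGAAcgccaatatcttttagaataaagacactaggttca
The next set holds the 3 strongest sites with a match to the CTCF consensus core, which is in capitals and lies on the minus strand in all 3.
chr7:73618401-73618660, intergenic, nearest coding gene Chd2: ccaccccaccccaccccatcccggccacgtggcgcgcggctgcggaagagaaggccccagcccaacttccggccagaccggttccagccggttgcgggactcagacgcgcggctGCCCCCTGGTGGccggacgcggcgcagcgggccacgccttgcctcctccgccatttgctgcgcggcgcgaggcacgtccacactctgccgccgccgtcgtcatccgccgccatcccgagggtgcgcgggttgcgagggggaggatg
chr4:151141621-151141840, intron of Camta1: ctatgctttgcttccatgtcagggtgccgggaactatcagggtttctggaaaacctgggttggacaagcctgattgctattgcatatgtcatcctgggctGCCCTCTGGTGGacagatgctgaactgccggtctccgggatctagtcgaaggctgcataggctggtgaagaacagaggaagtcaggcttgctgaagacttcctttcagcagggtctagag
chr10:84438121-84438320, intron of Nuak1: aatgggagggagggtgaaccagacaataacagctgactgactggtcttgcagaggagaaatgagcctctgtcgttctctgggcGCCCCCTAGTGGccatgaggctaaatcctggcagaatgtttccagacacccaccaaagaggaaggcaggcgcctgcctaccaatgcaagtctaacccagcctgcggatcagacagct
The last set holds single-copy sites near Ptma, Malat1 and Fos, with capitals for bases under a footprint in both libraries; for Fos the middle 300 bases of a 480 bp peak are shown.
chr1:86525281-86525520, 1325 bp from a Ptma start: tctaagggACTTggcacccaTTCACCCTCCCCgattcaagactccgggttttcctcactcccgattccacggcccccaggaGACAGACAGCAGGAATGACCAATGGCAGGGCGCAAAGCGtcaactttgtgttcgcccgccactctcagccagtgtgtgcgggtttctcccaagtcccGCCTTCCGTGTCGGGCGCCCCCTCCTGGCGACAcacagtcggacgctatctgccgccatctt
chr19:5803561-5803800, 1009 bp from a Malat1 start: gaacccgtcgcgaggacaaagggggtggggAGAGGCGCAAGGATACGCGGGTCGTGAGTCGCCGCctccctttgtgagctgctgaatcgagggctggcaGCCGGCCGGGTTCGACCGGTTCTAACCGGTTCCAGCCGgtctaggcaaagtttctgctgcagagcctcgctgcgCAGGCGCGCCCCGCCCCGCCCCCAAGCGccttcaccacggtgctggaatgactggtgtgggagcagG
chr12:85455231-85455530, 18509 bp from the Fos start: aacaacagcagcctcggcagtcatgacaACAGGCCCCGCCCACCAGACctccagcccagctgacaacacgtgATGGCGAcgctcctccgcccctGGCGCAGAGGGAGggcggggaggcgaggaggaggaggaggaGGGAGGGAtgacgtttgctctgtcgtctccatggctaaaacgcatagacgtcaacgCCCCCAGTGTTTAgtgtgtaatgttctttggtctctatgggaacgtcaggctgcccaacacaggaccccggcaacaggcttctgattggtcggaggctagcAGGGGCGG

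Across the 343 sites, signal ran from 4.02 through a median of 5.23 to 30.4 in replicate 1 and from 5.01 through 6.60 to 29.4 in replicate 2. Only 45 sites were at 8 or more in both libraries. Over all shared peaks the median log2 difference of replicate 1 minus replicate 2 was -0.26, so differences between libraries were taken after subtracting that offset. The absolute centred log2 difference had a median of 0.14 over the 343 sites, against 0.12 over strong start-site peaks and 0.23 over the other shared distal peaks. Only 1 site differed by more than 1 on the log2 scale, a fully soft-masked site on chromosome 9 described with the multi-copy sites. Spearman's rho between the libraries' signals was 0.74 over the 343 sites, a description of values that the choice of sites had already limited.

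**Figure D1:**
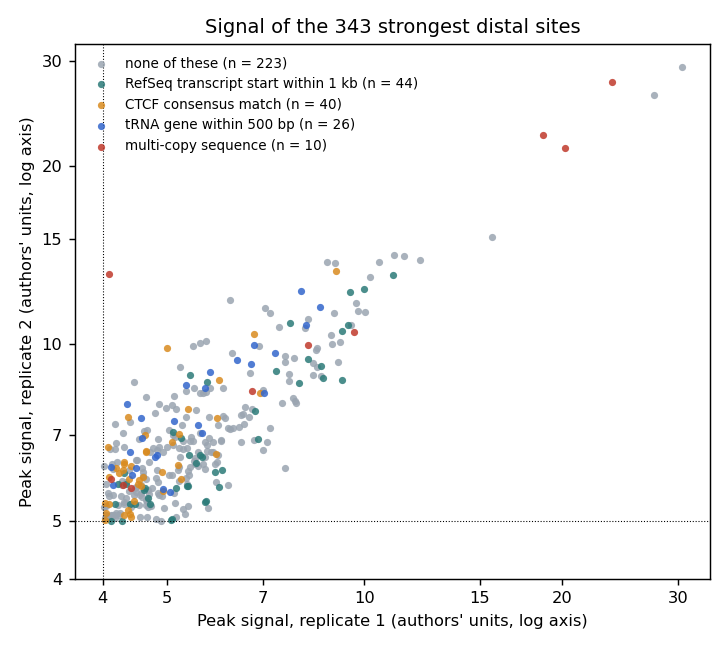
Peak signal of the 343 strongest distal sites in replicate 1 (x axis) and replicate 2 (y axis), in the authors' units on log axes, with dotted lines at the limits of 4 and 5. Colours give what lies at the site; 5 sites exceed 18 in both libraries, 3 of them multi-copy, and 1 multi-copy site stands far above the trend at 4.09 and 13.1.

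Values at the limits differed little across them. The lowest replicate 1 signal inside was 4.02, at chr2:33547061-33547240, and the highest outside was 3.99, at chr11:116592521-116592740. For replicate 2 the lowest value inside was 5.00717 and the highest outside 4.99589, at chr8:105622461-105622680. By distance, the nearest site inside lay 1009 bp from a Malat1 start and the farthest start-site peak outside lay 996 bp from its start. By either limit alone, 118 distal peaks reached the replicate 2 limit but not that of replicate 1, and 72 the reverse.

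Sites were ranked by the mean of both libraries' centred log2 signals. The first lay in an exon of Cers5, a ceramide synthase gene, at chr15:99735661-99735920, with signals of 30.4 and 29.4. None of its 36-base words recurred in the assembly. Footprints covered 7.31% of it in replicate 1 and 24.75% of its replicate 2 peak, against medians of 41.2% and 38.0% over all 343 sites. Its covered share in replicate 1 was the lowest of the 343. By count this site held 2 footprints in replicate 1 and 9 in its replicate 2 peak. The next, at chr9:123461901-123462120 in an exon of Lars2, the mitochondrial leucyl-tRNA synthetase gene, had signals of 27.6 and 26.3 and 49.7% of its words repeated, just under the limit of 50% used for multi-copy. Ranks 3 to 5 were the multi-copy sites on chromosomes 3, 6 and 13 printed above, with signals of 23.8 and 27.7, 20.2 and 21.4, and 18.7 and 22.5. Rank 6 lay in an exon of Ubqln1, a ubiquilin gene of protein quality control, at chr13:58177621-58177820, with 15.6 and 15.1 and no repeated word. From rank 7 on no replicate 1 signal exceeded 12.1. The next 4 were at C87436 (an exon, 12.1 and 13.8), the Ptma site printed above (11.5 and 14.0), an exon of the noncoding gene 9330198N18Rik (11.1 and 14.1) and an intergenic site 39135 bp from the Ptma start (10.5 and 13.7). Ptma encodes prothymosin alpha, a chromatin-associated acidic protein. The sites in exons of Cers5, Lars2 and Ubqln1 were the only 3 of the 10 strongest with a higher deposited signal in replicate 1 than in replicate 2, and across all 343 sites 19 were higher in replicate 1. Deposited values are not centred, and the median log2 difference of replicate 1 minus replicate 2 over all shared peaks was -0.26.

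Among the 333 sites that were not multi-copy, ranks 11 to 13 completed the 10 strongest. They lay beside Kcnn1, a calcium-activated potassium channel gene of neurons (11.04 and 13.1), 1009 bp from Malat1, an abundant nuclear noncoding RNA (10.2 and 13.0), and in an intron of Mxi1, a repressor of the MYC network (9.03 and 13.7). The Kcnn1 site was 30 bp from a RefSeq start of that gene although it was 2463 bp from any GENCODE start. That pattern recurred: 44 sites, 12.8% (exact 95% interval 9.48 to 16.8), were within 1 kb of a RefSeq transcript start and not near a tRNA gene, against 5.02% of all shared distal peaks and 6.84% of the next-strongest distal peaks. The word distal therefore depends on the annotation for these sites. Examples were Angptl6 (9.98 and 12.4), Prdm2 (9.23 and 10.5), Cpeb4, an RNA-binding translation regulator (8.58 and 9.17), and 3 sites at Kdm6b, a histone H3K27 demethylase gene. The 44 sites had a median CpG observed/expected ratio of 0.79 in the 300 bp around the centre, the measure used to define CpG islands.

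By position, 203 sites were intergenic (59.2%), 98 intronic (28.6%) and 42 exonic (12.2%), as judged by the centre in GENCODE M21. Next-strongest distal peaks were intergenic in 51.6%, intronic in 40.6% and exonic in 7.83%. The distance to the nearest transcript start had a median of 6268 bp and a maximum of 169339 bp, against medians of 7975 bp for the next-strongest and 12580 bp for the other shared distal peaks. Sites lay within 2 kb of a start in 20.1% of cases and over 50 kb away in 3.79%. Of the intronic and exonic sites together, 116 were in a coding gene and 14 in a lincRNA gene. Chromosome 11 held 42 sites, 12.2% of them, with 7.08% of all autosomal peaks and 9.04% of strong start-site peaks.

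Sequence composition placed the 343 sites between promoters and other distal peaks. The CpG observed/expected ratio had a median of 0.65, against 0.87 in strong start-site peaks, 0.36 in next-strongest distal peaks and 0.26 in other shared distal peaks. A ratio of 0.6 or more was found in 186 sites, 54.2% (exact 95% interval 48.8 to 59.6), against 23.0% of all autosomal peaks. Sites with a CTCF match and none of the other features had a median of 0.43, and sites at tRNA genes 0.81.

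Every one of the 343 sites held at least 1 footprint in replicate 1, against 82.3% of all autosomal peaks. The sets of high signal were alike in this, since only 1 next-strongest distal peak and 3 strong start-site peaks held none. Footprints per site averaged 4.57 in replicate 1 (SD over sites 1.83, range 1 to 13) and 4.38 in the matching replicate 2 peaks (SD 1.83, range 0 to 13). Strong start-site peaks averaged 5.28 and 5.32, next-strongest distal peaks 3.83 and 3.45, and other shared distal peaks 2.42 and 1.75. In both libraries the 343 sites thus lay between promoters and the next-strongest distal peaks, and the difference from either set was larger than the difference between libraries. Peak width was not matched between the sets, and its part in this order was not tested. Sites with 5 or more footprints were 46.9% in replicate 1 and 40.8% in replicate 2, and sites with 1 footprint numbered 3 and 4.

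**Figure D2:**
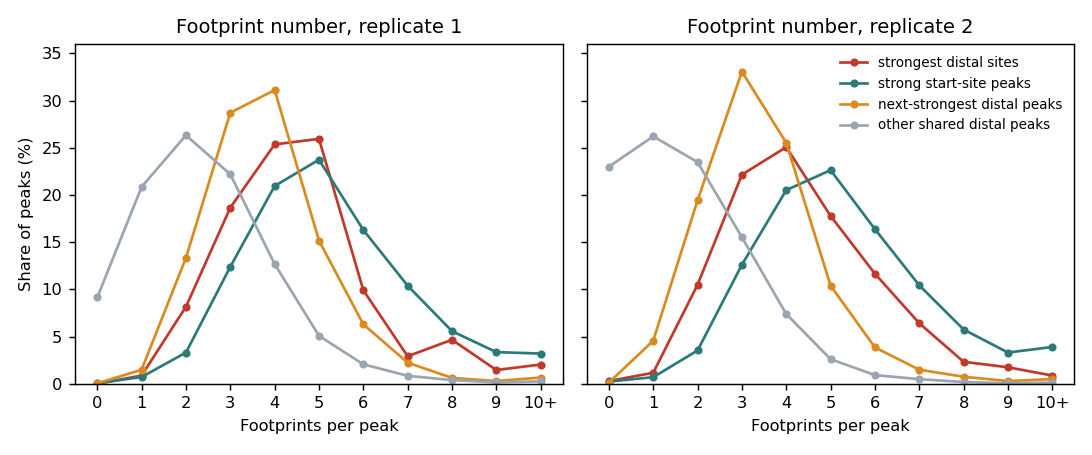
Share of peaks (y axis, %) by the number of footprints per peak (x axis, 10 or more pooled) in replicate 1 (left) and replicate 2 (right), for 4 sets of peaks. The 343 strongest distal sites average 4.57 and 4.38 footprints and sit between strong start-site peaks and next-strongest distal peaks.

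Wider sites held more footprints. Over the 343 sites Spearman's rho of footprint count was 0.64 with peak width and 0.14 with signal in replicate 1, and 0.67 and 0.08 in replicate 2. These are descriptions across sites that share their libraries, and the choice of sites by signal cuts the range of signal, so the values for width and signal are not comparable. Sites up to 180 bp wide (68 of them) averaged 3.10 footprints in replicate 1, those of 200 to 240 bp (193) averaged 4.30 and those of 260 bp or more (81) averaged 6.47, with 1 site between the first classes. The 2 most footprinted were overlapping peaks in an intron of Ppp2r3d, a phosphatase regulatory subunit gene, at chr9:124425161-124425880 and chr9:124425401-124425900. They had 13 and 11 footprints in replicate 1 and shared 1 replicate 2 peak with 13. The next was a site in an intron of Gm49482 near Gpr84 (8 and 12). A further 7 sites tied with 17 over both libraries: 2 near Ptma (10 and 7, 9 and 8) and 1 each near Fos (10 and 7), Kcnn1 (9 and 8), Nfib (9 and 8), Klrb1c (8 and 9) and Chd7, a chromatin remodeller gene (8 and 9).

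Counts at single sites often differed between the 2 libraries. The same number was found at 92 sites, and counts differed by 1 or less at 228 of 343 (66.5%), with rho 0.44. The largest gap, 13 against 2 near Sin3a, came with peaks of 660 and 140 bp. The single site without a footprint in its replicate 2 peak, near Wnt7b, had a replicate 2 peak of 60 bp under a replicate 1 peak of 380 bp, and the whole replicate 1 peak held 9 replicate 2 footprints. By position, 82.3% of the 1553 different replicate 1 footprints in these sites were overlapped by a replicate 2 footprint. Of the 1483 in replicate 2, 86.6% were overlapped by one of replicate 1. In the other shared distal peaks these shares were 38.7% and 56.8%, but footprints there were fewer and narrower. The overlap that footprint cover alone would give was not estimated for either set.

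Footprints in the 343 sites were wide. Their median width was 18 bp in replicate 1 and 16 bp in replicate 2, against 16 and 14 bp in strong start-site peaks, 14 and 13 bp in next-strongest distal peaks, and 10 and 9 bp in other shared distal peaks. Widths of 30 bp or more made up 20.9% and 20.5% of their footprints, 11.5% and 10.8% in strong start-site peaks and 20.01% and 20.5% in next-strongest distal peaks. The widest footprint of a site had a median of 34 and 33 bp. The gap from one footprint to the next had a median of 28 and 29 bp. Together footprints covered a median of 41.2% and 38.0% of a site, 36.7% and 34.2% of a strong start-site peak and 35.9% and 31.2% of a next-strongest distal peak.

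**Figure D3:**
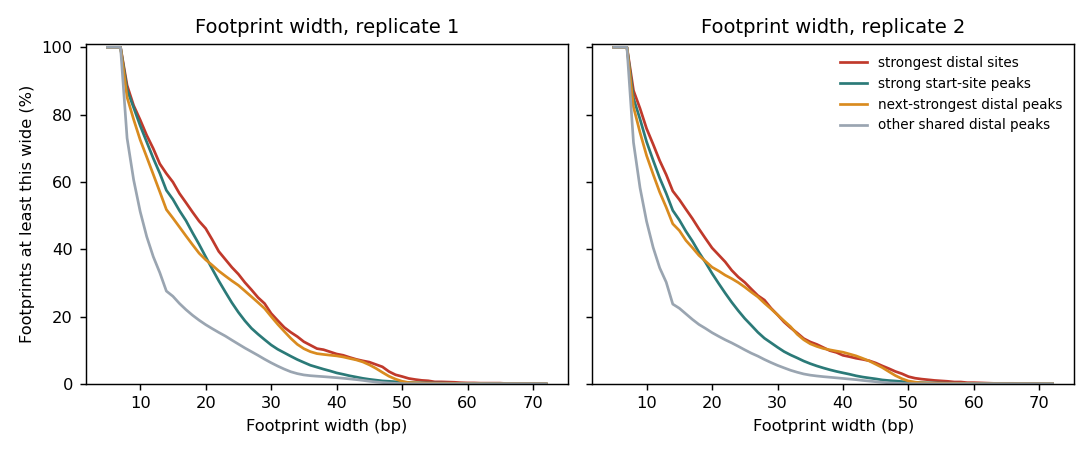
Share of footprints at least as wide (y axis, %) as the width on the x axis (bp), in replicate 1 (left) and replicate 2 (right), for 4 sets of peaks. Medians of the strongest distal sites are 18 and 16 bp, and their curve meets that of next-strongest distal peaks from about 30 bp on, where both hold about 20% of footprints.

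Genes for tRNAs were a frequent neighbour. Of 343 sites, 26 had a RefSeq tRNA gene within 500 bp of the centre, 7.58% (exact 95% interval 5.01 to 10.9), against 0.304% of all autosomal peaks, 2.57% of next-strongest distal peaks and 0.697% of strong start-site peaks. None of the 26 was multi-copy at the 50% limit, and repeated words made up at most 35.2% of any of them. The 26 genes were all different, carried 14 amino acids, and lay wholly inside the peak in 20 cases. Their signals ran from 4.12 through 5.25 to 8.56 in replicate 1 and from 5.62 through 7.45 to 12.3 in replicate 2. The highest were at n-TTagt9 (8.56 and 11.5), n-TRccg1 on chromosome 11 (tRNA-Arg, 8.01 and 12.3) and n-TLcag4 on chromosome 8 (tRNA-Leu, 8.14 and 10.7). After centring, replicate 1 was lower at these sites by a median of 0.21 on the log2 scale (centred log2 difference of -0.21, range -0.60 to 0.11), while the 44 sites at RefSeq starts had a median of 0.06.

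Footprints at the tRNA genes had a fixed layout in both libraries. Counting from the gene's first base as 0 and in the direction of the gene, bases -50 to 6 were each under a replicate 1 footprint in at least 50% of the 26 genes, 83.9% on average, and bases -50 to 5 under a replicate 2 footprint, 81.5% on average. Bases 10 to 49 were under a footprint in 19.7% and 20.5% on average. Coverage rose again over bases 40 to 73 in replicate 1 (73.2%) and 43 to 74 in replicate 2 (70.2%), the end of the gene where the B box, an internal promoter element, lies. The B box letters GTTCGANNC, searched on both strands, were found in 22 of the 26 genes, of which this element is a regular part. In 300 bp windows the letters were found in 8.16% of the 343 sites and in 0.932% of all autosomal peaks. Farther upstream, bases -112 to -96 in replicate 1 and, in replicate 2, bases -112 to -104 and -102 to -98 also reached 50%. The widest footprint per site had a median of 48 bp in replicate 1 and 43.5 bp in replicate 2 at these 26 sites, against 34 and 33 bp over all 343.

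**Figure D4:**
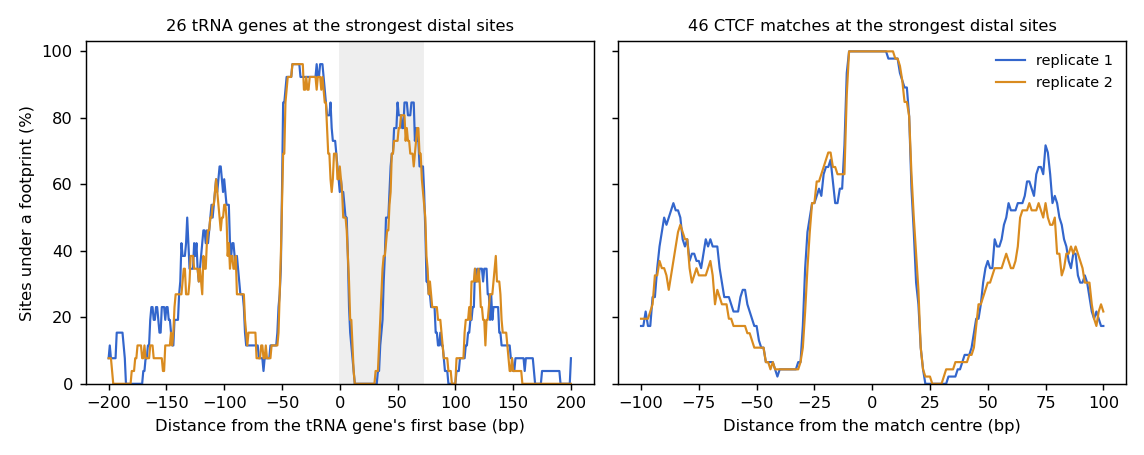
Share of sites under a footprint (y axis, %) by distance in bp, in the direction of the gene or match, for the 26 tRNA genes (left, gene body of 72 bp shaded) and the 46 CTCF matches (right), in replicates 1 and 2. Coverage at tRNA genes peaks upstream of the gene, at 96.2%, and again in its 3′ part, and every CTCF match centre is under a footprint in both libraries.

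Matches to the CTCF consensus core, searched by name on both strands in the 300 bp around the centre, were present in 43 of 343 sites, 12.5% (exact 95% interval 9.22 to 16.5). All autosomal peaks had a match in 5.30%, strong start-site peaks in 1.44%, and next-strongest distal peaks in 27.8%. The share was thus lower than in the next-strongest set, and it was 6.79% with both signal limits raised by 25% and 19.3% with both lowered by 25%. Of the 43 sites, 40 were neither multi-copy nor near a tRNA gene or RefSeq start. All 46 matches in the 43 sites were at least 50% covered by a footprint in both libraries, as were 99.7% of 681 matches in next-strongest distal peaks in each library and 92.4% and 72.7% over all autosomal peaks. The 46 matches had a median footprint width over the match of 33 bp in each library and a median distance of 16 bp from the site's centre. Coverage of 50% or more of the matches ran from -27 to 17 bp around the match centre in replicate 1 and from -26 to 18 bp in replicate 2. Flanking stretches at 50% or more lay from -88 to -83 and from 58 to 81 bp in replicate 1 and from 64 to 76 bp in replicate 2. The strongest were the Chd2, Camta1 and Nuak1 sites printed above (9.07 and 13.3, 6.79 and 10.4, 6.93 and 8.26), then sites near Stard10 (6.01 and 8.67) and Ppp1r1b, the DARPP-32 gene of dopamine signalling (5.01 and 9.82). Neighbouring sites with a single match were 25990 kb apart at the median, and of 24 such pairs 6 pointed towards each other, 8 away and 10 the same way.

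Other short motifs in the same windows differed in which set they were nearest to. The SP/KLF letters GGGGCGGGG were found in 12.8% of the 343 sites, 27.7% of strong start-site peaks, 3.11% of next-strongest distal peaks and 5.71% of all autosomal peaks. For the NRF1 consensus the shares were 9.62%, 19.2%, 1.95% and 1.98% in the same order. The cAMP response element TGACGTCA, bound by CREB, was found in 5.25%, 6.27%, 1.04% and 0.967%. The EGR letters GCGTGGGCG were found in 3.21%, 1.503%, 0.373% and 0.475%, so in a larger share here than in start-site peaks. The AP-1 letters TGANTCA were found in 7.87%, 2.53%, 7.09% and 8.83%, and the proneural E-box letters CAGATGG in 6.997%, 2.42%, 9.53% and 10.3%. Both shares were nearer to next-strongest distal peaks than to start-site peaks. Other shared distal peaks had 11.2% for AP-1 and 13.9% for the E-box, the latter farther away than the start-site share. Matches lay under a footprint more often in the 343 sites than over all autosomal peaks for each of the 4 motifs that follow. For CRE the shares of matches were 94.4% and 77.8% in replicates 1 and 2 (18 matches), against 71.8% and 57.002% over all peaks. For EGR they were 90.9% in each library (11 matches), against 62.3% and 47.2%. For AP-1 they were 21.4% and 17.9% (28 matches), against 6.43% and 3.24%. For the E-box they were 66.7% in each library (24 matches), against 22.5% and 12.9%. Among strong start-site peaks the shares were close to or above those of the 343 sites for CRE (94.3% and 90.6%) and EGR (95.8% and 92.96%). They were lower for AP-1 (14.2% and 9.17%) and the E-box (35.96% and 42.1%). Among next-strongest distal peaks they were lower for all 4 motifs, with 50.996% and 49.8% for the E-box. Not every motif went this way. For the ETS letters CCGGAAGT the shares were 25% and 16.7% here (12 matches), against 34.2% and 27.2% over all autosomal peaks. The MEF2 consensus was lower in both libraries on 1 match, and the YY1 and POU letters were lower in replicate 1 only. The remaining motifs with a match had higher shares here than over all autosomal peaks in both libraries. Signal was not matched between sets, and its part in these shares was not tested. No site held the REST consensus (0 of 343, which allows up to 1.07% by the exact interval). A match is a description of letters, and binding was not measured.

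**Figure D5:**
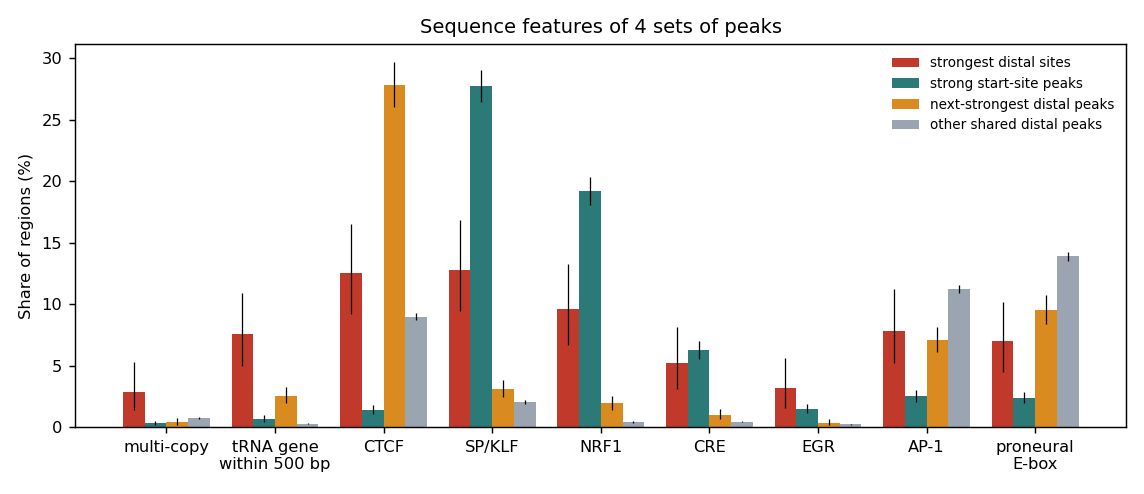
Share of regions (y axis, %) that are multi-copy, lie within 500 bp of a tRNA gene or hold a motif in the 300 bp around the centre (x axis), for 4 sets of peaks, with exact 95% binomial intervals that cover counting error only. The strongest distal sites have the highest bars for multi-copy sequence (2.92%) and tRNA genes (7.58%) and lie between start-site and next-strongest distal peaks for CTCF, SP/KLF, NRF1 and CRE.

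Multi-copy sequence made up 10 of the 343 sites, 2.92% (exact 95% interval 1.41 to 5.30), against 1.12% of all autosomal peaks, 0.327% of strong start-site peaks and 0.414% of next-strongest distal peaks. The share depended on the limits: it was 9.04% if 10% of words sufficed, 0.583% if 90% were required, and 1.58% with both signal limits lowered by 25%. Among the 10 strongest sites 3 were multi-copy. Of the 10, the site at chr3:5860361-5860530 had all of its words repeated and aligned to 20 other loci on 12 sequences of the assembly at 85% identity or more over at least 50% of its length. The Il31ra site aligned to 16 other loci, 1 of them overlapping the chromosome 3 site. The sites on chromosome 6 (49236421) and in Gphn were 99.3% identical over 151 bp, and both aligned to the Lars2 exon site. These 3 sites thus share sequence, as do the chromosome 3 and Il31ra sites, all of them among the 24 strongest. No site overlapped a GENCODE rRNA gene or aligned to the mitochondrial genome. The sites were not aligned to a ribosomal DNA unit, so whether any holds ribosomal RNA sequence was not tested. Few other copies of the first pair were listed as peaks: 0 of the 20 other loci of the chromosome 3 site and 1 of the 16 of the Il31ra site overlapped a replicate 1 peak. For the chromosome 6 and Gphn sites 3 of 5 and 3 of 4 did. These counts include sites already described. For Il31ra the locus was the chromosome 3 site, and the chromosome 6 and Gphn counts include each other and the Lars2 exon site.

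The remaining multi-copy sites were of other kinds. The libraries differed most at chr9:3002037-3002220 in an intron of Gm10722, which was 100% soft-masked repeat, aligned to 368 other loci, 142 of them on chromosome 9, and had signals of 4.09 and 13.1, a centred log2 difference of -1.42. The sites at chr8:20550141-20550380 (8.20 and 9.95) and chr8:19703201-19703380 (4.41 and 5.71) had 5 and 6 of their other copies on the same chromosome. An exon site of the pseudogene Pisd-ps1, chr11:3127101-3127300, had 6.75 and 8.30. The sites at chr6:47748421-47748560 (4.30 and 5.76) and chr17:6691701-6691880 in Sytl3 (4.11 and 5.90) completed the 10; the former had 18 of its 19 other loci on chromosome 6. The 10 sites had 3.60 and 3.30 footprints on average. Their signals ran from 4.09 through a median of 7.48 to 23.8 in replicate 1 and from 5.71 through 10.2 to 27.7 in replicate 2, against medians of 5.22 and 6.59 over the other 333 sites. How far copies missing from the assembly add to these signals was not tested.

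Below the 50% limit, 21 sites had at least 10% of words repeated and 10 aligned to another locus. A pair of sites on chromosome 6 near Klrb1c, a natural killer cell receptor gene, chr6:128764221-128764500 and chr6:128803021-128803440, aligned to each other at 89.3% identity, and the third site of that run aligned at 96.3% to a locus in the same region that was also a replicate 1 peak.

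From each of the 343 sites, the nearest other one lay at a median distance of 651 kb. Another of them lay within 1 kb for 22 sites (6.41%), within 10 kb for 44 (12.8%) and within 100 kb for 87 (25.4%, or 16.7% with both signal limits raised by 25%). Only 2 pairs overlapped, in Ppp2r3d and near Rps6ka1, and the 343 sites rested on 341 different replicate 2 peaks. Other replicate 1 peaks within 10 kb numbered 3 at the median, against 2 around next-strongest distal peaks and 1 around other shared distal peaks. The nearest strong start-site peak was 73.3 kb away at the median, against 97.5 kb for next-strongest distal peaks.

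Runs of 3 or more sites with gaps of at most 50 kb numbered 6 and held 24 sites. The longest, chr1:86434461-86528480, held 6 sites over 94.02 kb between Tex44 and Ptma, with signals from 4.48 to 11.5 and from 5.35 to 14.0. The run at chr11:69040901-69111020 held 5 sites over 70.1 kb, 4 of them at tRNA genes (tRNA-Asp, tRNA-Trp and 2 tRNA-Ser genes) and the other in an intron of Per1, a core clock repressor gene (5.48 and 6.85). The run at chr11:69366481-69418240 held 4 sites, 3 at Kdm6b and 1 in Chd3, a chromatin remodeller gene, all within 1 kb of a RefSeq start. Another run of 3 lay at Nr1d1, which encodes the clock repressor REV-ERB alpha, and Msl1 (7.57 and 9.51 for the strongest), and one at Bahcc1. Genes with 3 or more sites in the body or within 20 kb were Aurkb, Bahcc1, Borcs6, Dnah2, Kdm6b, Klrb1c, Nr1d1, Thra and Tmem88.

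Set against lists of cell type genes, few sites fell at list genes as host or nearest coding start. The 20 activity-induced genes, which neurons switch on after firing, had 6 sites, 1.75% of the 343, against 0.250% of all shared distal peaks outside the 343, the set behind every list share that follows. These were 2 sites 18509 and 11270 bp from Fos (6.56 and 7.31, 5.14 and 5.59) and 1 each at Fosb (5.39 and 5.31), Ier2 (5.02 and 6.68), Nr4a3 (5.04 and 5.9996) and Egr3 (4.18 and 5.06). The Fos site printed above had 10 and 7 footprints. Excitatory neuron genes had 3 sites (0.875% against 0.315%), 2 of them at Mef2c, a transcription factor gene of cortical neurons (5.63 and 7.05, 4.41 and 5.30), and 1 at Slc17a7, the vesicular glutamate transporter gene (4.04 and 5.38). The Mef2c sites lay 62283 and 92243 bp from the nearest coding start, and 6210 and 6268 bp from the nearest transcript start of any kind. Astrocyte genes had 2 (0.583% against 0.307%), in introns of Nfia (5.77 and 8.60) and Nfib (5.36 and 5.93). The oligodendrocyte gene Mog (5.22 and 6.19), the microglial gene Cx3cr1 (6.53 and 7.59) and the synaptic scaffold gene Dlg4 (7.67 and 8.65) had 1 each, 0.292% of the sites, against 0.160%, 0.0900% and 0.222% for the oligodendrocyte, microglia and axon and synapse lists. The inhibitory neuron and vascular lists and the lists of 8 liver and 7 skeletal muscle genes had 0, against 0.227%, 0.0900%, 0.0225% and 0.0125%, so small that 343 sites cannot show a lack of them.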

How the data were processed

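DNase-seq libraries of 2 biological replicates were used, 1 group with no contrast, so no test between conditions was made. Peaks and their signal values were called by the authors for each library from filtered alignments to mm10, per the deposited text files. The deposited footprint lists carry a false discovery rate, given as a p-value type column, of 0.01 in every row, and the deposited cut-rate tables list false discovery rates under 0.05. The sources used here name no aligner, caller, signal scaling or read depth, so precision is limited by 2 libraries. The lists held 104654 and 81654 peaks and 293484 and 187137 footprints.

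The members and lists were chosen with earlier results of these data known. Regions named are the 10 strongest sites, the 10 strongest that are not multi-copy, every multi-copy site, the 5 with most footprints (with ties), the 5 strongest with a CTCF match, those of the 3 longest runs, those at each threshold, and sites at list genes. tRNA gene examples, RefSeq start examples and further runs were added after their values were seen. Footprints were assigned to peaks by their centre. A peak was multi-copy if at least 50% of its 36-base words occur more than once in GRCm38, and other loci were searched with BLAST 2.17.0 at 85% identity over 50% of the peak. Motifs were exact consensus matches on both strands in 300 bp, and a match counted as footprinted if at least 50% of it lay under a footprint. The tRNA B box, and the alternatives on RefSeq starts, tRNA genes, CpG and overlapping pairs, were chosen after seeing the data. Transcript starts came from GENCODE M21, and tRNA genes, further starts and sequences from RefSeq (GRCm38.p6). Intervals are exact (Clopper-Pearson) at 95% and cover counting error only. Python 3.11.15, numpy 2.4.6, pandas 2.3.3, scipy 1.17.1, numba 0.67.0 and matplotlib 3.10.9 were used, and the counting steps were tested on simulated data. No paired analysis was possible because there is 1 group.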

Additional observations from a re-analysis of the deposited data

Results flagged for a closer look

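Outside the autosomes, 8 peaks met the same signal and distance limits, 7 on chromosome X and 1 on chromosome Y, and were left out of every count above. The strongest were a neighbouring pair at chrX:169997921-169998240 (17.7 and 16.4) and chrX:169998261-169998420 (16.8 and 16.4), which had the same replicate 2 value, and 2 more lay on the same end of chromosome X near Gm15247 and Gm21887 (6.46 and 8.10, 6.39 and 12.1). The chromosome Y peak, near Mid1-ps1, had 4.56 and 6.90 in these libraries labelled female. The distal ends of chromosomes X and Y hold the pseudoautosomal region, whose sequence both carry, so reads there need not come from a Y chromosome. Whether these peaks lie in it, and the cause of their signal, was not tested.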

How the results depend on the processing

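Over 11 results, 56 of 85 settings kept a value within its spread and 29 moved it. The 343 sites became 191 beyond 5 kb, 162 with both signal limits raised by 25% and 885 with both lowered by 25%. Choosing by 1 library alone gave 415 to 460 sites. With raised, then lowered limits, footprints per site were 4.82 and 4.26 in replicate 1 and 4.63 and 4.04 in replicate 2, sites within 100 kb of another 16.7% and 36.3%, CTCF matches 6.79% and 19.3%, and CpG ratios of 0.6 or more 62.3% and 40.2%. Median footprint widths were 20 and 17.5 bp with raised limits. In 300 bp windows footprints numbered 5.37 and 4.86, with a replicate 1 median width of 16 bp, and with whole footprints inside the peak 4.33 and 4.20. Intergenic shares were 64.6% beyond 2 kb and 70.7% beyond 5 kb, where 19.4% of sites had another within 100 kb. With RefSeq starts and tRNA genes left out that share was 19.8% and the CpG share 47.6%. Multi-copy shares were 9.04% at 10% of words, 0.583% at 90% and 1.58% with lowered limits. Without replicate 1, replicate 2 footprints were 4.18 and the CpG share 44.6%; without replicate 2 they were 4.54 in replicate 1 and 53.7%. Leaving out a library gave intergenic shares of 58.6% to 58.7%, spacing shares of 26.1% to 27.0%, multi-copy shares of 2.65% to 2.83%, CTCF shares of 12.3% to 15.4%, tRNA shares of 6.27% to 7.61% and median widths of 17 bp (replicate 1) and 16 bp (replicate 2). The cause of these shifts was not tested. No paired analysis was possible because there is 1 group. Read depth was not given, so a low footprint count cannot be told apart from few cuts.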
